A study of Bos taurus with 12 samples.

Results

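Cathepsins are the proteases of the lysosome, and cystatins are their protein inhibitors. The genes described here are CTSB, CTSL, CTSC, CTSD, CTSH, CTSK, CTSS, CTSZ, CST3 and CST6, chosen by name. The array's annotation gives these symbols to 18 probe sets, each with a single symbol. Of these, 16 exceeded a log2 value of 4 on 3 or more of the 12 arrays and were kept, so all 10 genes were measured, among 6781 genes and 13449 kept probe sets in the whole table. Each gene is given by its brightest kept probe set unless another is named.

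The endometrium of Simmental heifers was sampled by biopsy in the cycle before an embryo was transferred, and its RNA was hybridised to Affymetrix bovine arrays. Tissue of heifers that later delivered a calf forms the groups CDd14 (day 14 of the oestrous cycle) and CDd7 (day 7). Tissue of heifers that returned to heat and were not pregnant forms NPd14 and NPd7. Every group has 3 arrays, each of them of pooled RNA, and the number of heifers in a pool is not stated in the sources used here, so the p-values measure the spread between pools. Sampling preceded any transfer, so CD and NP are outcomes of the following cycle and not treatments.

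Most cathepsins are cysteine proteases of the papain family, and CTSD is an aspartic protease. They are made as inactive proenzymes, carried to the lysosome largely by mannose 6-phosphate receptors, and activated at acid pH. Some are also secreted, where cystatins can bind and block the cysteine types. In sheep, cathepsins and cystatin C are known products of the uterine epithelium around implantation.

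The arrays were alike in brightness, with medians over all probe sets between 4.89 and 5.06 on the log2 scale. Of 12 epithelial markers 11 were measured, and their mean log2 level was 11.18 to 11.79 on every array. Of 8 markers of endometrium only MSX1 and OXTR were measured, PGR, ESR1 and HOXA10 stayed under the filter, and HOXA11, FOXA2 and HAND2 are not in the annotation used here. None of 5 smooth muscle markers was measured. The 3' minus 5' difference of 3 control transcripts (GAPDH, cyclophilin, EF1A) grows with RNA breakdown or short labelling. It was 1.97 ± 0.11 in CDd14, 2.32 ± 0.17 in NPd14, 1.65 ± 0.20 in CDd7 and 1.94 ± 0.19 in NPd7 (log2, mean ± SD, n = 3 pools each). For added control transcripts, which do not come from the tissue, it was 5.13 ± 0.12 in CDd14 and 5.38 ± 0.14 in NPd14. In CDd7 it was 4.74 ± 0.07 and in NPd7 5.06 ± 0.15. Both kinds of control were lowest in CDd7 and highest in NPd14, and the cause was not tested. Stromal fibroblast markers also moved with the groups: 7 of the 11 measured were lower in CDd7 than in NPd7 past the threshold.

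CST6 encodes cystatin E/M, a secreted inhibitor that blocks both cathepsins and legumain, and it had the largest span of group means among the 10 genes. Its log2 level was 12.84, 11.58 and 11.16 in the CDd14 pools, 11.95, 12.22 and 8.33 in the NPd14 pools, 8.67, 9.41 and 8.69 in the CDd7 pools, and 8.99, 9.67 and 8.38 in the NPd7 pools. All CDd14 pools lay above all day 7 pools, while NPd14 was split, with pool 3 below every other array. Group means were 11.86 ± 0.88 in CDd14, 10.83 ± 2.17 in NPd14, 8.92 ± 0.42 in CDd7 and 9.02 ± 0.64 in NPd7. The other CST6 probe set stayed between 2.02 and 2.57 on all arrays and was not kept, so it carries no reading of the gene.

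CST3 encodes cystatin C, the broadly expressed secreted inhibitor of cysteine cathepsins. Its brightest probe set hardly varied, with means of 12.90 ± 0.15 in CDd14, 12.92 ± 0.27 in NPd14, 12.80 ± 0.06 in CDd7 and 12.91 ± 0.05 in NPd7. All groups overlapped their neighbours in the order of means. Its other probe sets differ from it and are given further on.

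CTSH is an aminopeptidase that trims proteins from their N-terminal end. Its log2 level was 9.43, 6.88 and 8.58 in the CDd14 pools, 7.78, 8.90 and 6.48 in the NPd14 pools, 4.97, 5.17 and 6.56 in the CDd7 pools, and 5.72, 6.34 and 6.53 in the NPd7 pools. CDd14 lay above CDd7 without overlap, though by little between CDd14 pool 2 and CDd7 pool 3, and NPd14 pool 3 lay among the NPd7 pools. The means were 8.30 ± 1.30 in CDd14, 7.72 ± 1.21 in NPd14, 5.57 ± 0.86 in CDd7 and 6.20 ± 0.42 in NPd7.

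CTSS cuts the invariant chain of MHC class II molecules in antigen-presenting cells and stays active near neutral pH. Its log2 level was 13.75, 14.00 and 13.94 in the CDd14 pools, 14.04, 13.80 and 13.93 in the NPd14 pools, 13.23, 13.18 and 13.60 in the CDd7 pools, and 13.80, 13.70 and 13.93 in the NPd7 pools. The CDd7 pools were the lowest of the 12 arrays, and the other 3 groups overlapped one another. Means were 13.90 ± 0.13 in CDd14, 13.92 ± 0.12 in NPd14, 13.33 ± 0.23 in CDd7 and 13.81 ± 0.11 in NPd7.

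CTSK is the collagen-cutting cathepsin of osteoclasts and is also made by fibroblasts and macrophages. Its log2 level was 5.61, 6.57 and 6.59 in the CDd14 pools, 9.04, 7.06 and 7.71 in the NPd14 pools, 6.07, 6.02 and 6.57 in the CDd7 pools, and 5.79, 6.91 and 6.56 in the NPd7 pools. The NPd14 pools were the highest 3 arrays, and the other groups overlapped. Means were 6.26 ± 0.56 in CDd14, 7.94 ± 1.01 in NPd14, 6.22 ± 0.30 in CDd7 and 6.42 ± 0.57 in NPd7.

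CTSB removes dipeptides from C-terminal ends and also cuts inside proteins. It averaged 12.18 ± 0.42 in CDd14, 12.18 ± 0.52 in NPd14, 11.71 ± 0.14 in CDd7 and 11.68 ± 0.10 in NPd7. CDd14 lay above CDd7 without overlap, while NPd14 pool 3 (11.62) lay among the NPd7 pools. CTSZ, a carboxypeptidase that takes off single residues, averaged 10.90 ± 0.57 in CDd14, 10.47 ± 0.80 in NPd14, 10.18 ± 0.15 in CDd7 and 9.68 ± 0.39 in NPd7. CTSD, the aspartic protease, averaged 7.99 ± 0.73 in CDd14, 8.36 ± 0.59 in NPd14, 7.48 ± 0.25 in CDd7 and 7.77 ± 0.17 in NPd7, and each group overlapped the next. CTSC, which activates the granule proteases of leukocytes, averaged 9.13 ± 0.74 in CDd14, 9.26 ± 0.32 in NPd14, 8.42 ± 0.64 in CDd7 and 8.81 ± 0.46 in NPd7. CTSL, a broad endopeptidase, ran the other way, at 5.95 ± 0.65 in CDd14, 5.92 ± 0.33 in NPd14, 6.57 ± 0.48 in CDd7 and 6.34 ± 0.36 in NPd7. Its groups overlapped as well. Levels of different genes come from different probes, so they are not set against each other.

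**Figure D1:**
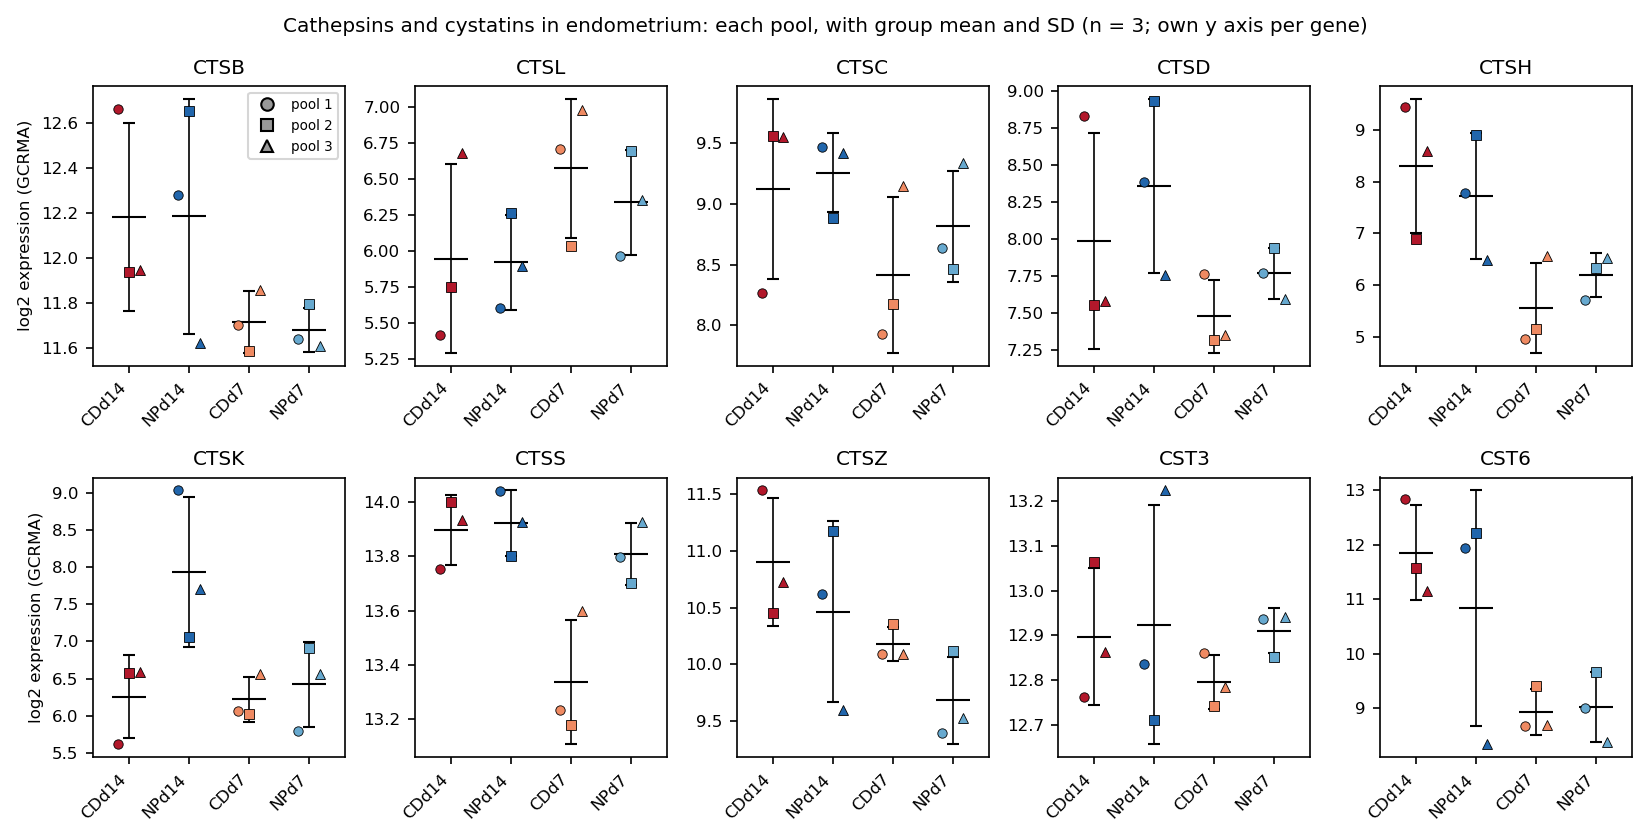
Log2 expression of each of the 10 genes by group, with a symbol per pool and bars for the group mean and SD, n = 3 (GCRMA values, brightest probe set, groups in the order CDd14, NPd14, CDd7, NPd7). CST6 averaged 11.86 in CDd14 and 8.92 in CDd7, the CDd7 pools were the lowest for CTSS, and the NPd14 pools were the highest for CTSK.

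The change over the cycle in heifers that later calved was the comparison in which members passed the test. CTSS, CTSH and CST6 were higher in CDd14 than in CDd7 and no member was lower, so an aminopeptidase, the class II processing enzyme and a secreted inhibitor rose. That is 3 of 10 genes (limma, adjusted p under 0.05), where 24.1% of all measured genes were called in either direction and 9.87% were called higher. CST6 rose by 2.94 ± 0.90 on the log2 scale (SE), or 7.65-fold, with an adjusted p of 0.0398 (limma). CTSH rose by 2.73 ± 0.74, or 6.65-fold, with an adjusted p of 0.0252 (limma). CTSS rose by only 0.56 ± 0.14, or 1.48-fold, at an adjusted p of 0.0190 (limma).

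Of the other genes in CD, CTSZ differed by 0.72 ± 0.40 with a 95% interval of -0.16 to 1.60, and CTSC by 0.71 ± 0.42 with an interval of -0.22 to 1.64. CTSB differed by 0.47 ± 0.26 (interval -0.12 to 1.05) and CTSD by 0.51 ± 0.37. CTSL was the single negative value at -0.62 ± 0.35 (interval -1.41 to 0.16). CTSK stood at 0.04 ± 0.49 and the brightest CST3 probe set at 0.10 ± 0.14. Adjusted p-values of these 7 genes lay between 0.202 and 0.962 (limma). CDd14 lay wholly above CDd7 for 5 of 10 genes (CTSB, CTSH, CTSS, CTSZ and CST6), against 22.1% of all genes. The median difference over the 10 genes was 0.54, against -0.00 over all 6781.

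These 3 calls depended on single pools. CTSS was not called without CDd7 pool 1, CDd7 pool 2, CDd14 pool 2 or CDd14 pool 3 (adjusted p = 0.0568, 0.0786, 0.0602 and 0.0613, limma), and CTSH was not called without CDd7 pool 1, CDd7 pool 2, CDd14 pool 1 or CDd14 pool 3 (adjusted p = 0.0757, 0.0904, 0.0776 and 0.0776, limma). CST6 lost its call without any 1 of the 6 CD pools (adjusted p = 0.0657 to 0.112, limma) and without NPd7 pool 1 or NPd7 pool 3 (0.0571 and 0.0509). With the 3' minus 5' control difference as a covariate, CST6 differed by 3.73, CTSH by 2.5 and CTSS by 0.46, with adjusted p-values of 0.106, 0.188 and 0.187 (limma). In that fit 174 of the 13449 probe sets were called, against 3231 without the covariate. Epithelial markers moved in the same comparison: AGR2, CDH1 and KRT7 of 11 measured rose, where 9.87% of all genes were called higher. CLDN7 was the 1 epithelial marker of the 11 with a negative difference. It stood at 9.73 to 10.47 in CDd7 and 8.84 to 9.36 in CDd14. CLDN7 was lower at an unadjusted p under 0.05 and was not called (limma). Of 11 stromal fibroblast markers PDGFRA rose (by 1.60 on the log2 scale) and MMP2 fell (a difference of -1.50). CLDN5, the single endothelial marker measured of 7 listed, fell (a difference of -4.48), and the other 6 stayed under the filter. CLDN5 stood at 1.66 to 2.05 in CDd14, below the filter value of 4, and at 5.78 to 7.21 in CDd7. Only day 7 arrays carried CLDN5 past the filter, and the size of its fall depends on the floor. LCK of 8 T and natural killer cell markers and S100A12 of 4 neutrophil markers rose too. The mean log2 level of the neutrophil list was 8.60 to 9.57 in CDd14 and 6.67 to 8.21 in CDd7. T and natural killer cell markers had 7.40 to 8.04 in CDd14 and 6.24 to 7.59 in CDd7, and myeloid markers 5.85 to 6.66 in CDd14 and 5.68 to 6.53 in CDd7, with none of the 9 measured myeloid markers called (limma; 1 at an unadjusted p under 0.05). CD68, ITGAM, FCER1G, C1QC and CD86 stayed under the filter. The part of these cell types in the rises was not tested, and in bulk tissue fewer cells of a type and less RNA per cell cannot be told apart.

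In heifers that did not become pregnant, 9 of the 10 genes also had a positive day 14 minus day 7 difference, yet none passed (0 of 10 by limma, 1 at an unadjusted p under 0.05). Few genes of any kind passed there, 0.133% of those measured, and 16.5% had an unadjusted p under 0.05. CTSK had the smallest p: it differed by 1.52 ± 0.49 with an interval of 0.44 to 2.60 (unadjusted p = 0.0106, adjusted p = 0.187, limma). It was the single member with NPd14 wholly above NPd7, against 7.33% of all genes. Stromal fibroblast markers had a mean log2 level of 6.56 to 8.26 in NPd14 and 8.38 to 9.56 in NPd7. Their median difference was -2.24 over 11 genes, of which 7 had a negative difference at an unadjusted p under 0.05 and 0 were called (limma). COL6A1 of this list was above the filter value of 4 on the NPd7 arrays alone (4.79 to 6.92). It stood at 2.18 to 3.02 in NPd14, so the size of its fall depends on the floor. Neutrophil markers stood at 9.53 to 11.34 in NPd14 and 8.30 to 10.05 in NPd7, with a median difference of 1.69 and 0 of 4 called (limma; 1 at an unadjusted p under 0.05). The part of these cells in the CTSK value was not tested there. CST6 differed by 1.82 ± 0.90 (interval -0.18 to 3.81, adjusted p = 0.347, limma) and CTSH by 1.52 ± 0.74 (interval -0.11 to 3.16, adjusted p = 0.338, limma). The CST6 value was lowered by NPd14 pool 3: without that pool the difference was 3.07, with an adjusted p of 0.0306 (limma). With 1 array left out in turn, the CST6 difference ran from 1.12 to 3.07. CTSS differed by 0.11 with an interval of -0.20 to 0.43. The median over the 10 genes was 0.55, against -0.06 over all genes.

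Whether the day change differed between CD and NP was tested by the difference of both day effects, and 0 of 10 genes passed (limma), as did 0% of all genes. CTSS had the single unadjusted p under 0.05, which 14.5% of genes had. Its day effect was larger in CD than in NP by 0.45 ± 0.20 (interval 0.01 to 0.89, adjusted p = 0.347, limma). CTSK ran the other way, at -1.48 ± 0.69 (interval -3.01 to 0.05, adjusted p = 0.359, limma). The intervals of CST6 (-1.70 to 3.94) and CTSH (-1.10 to 3.53) were wide, so these arrays do not show that either gene changed more in CD than in NP, nor that it changed alike.

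**Figure D2:**
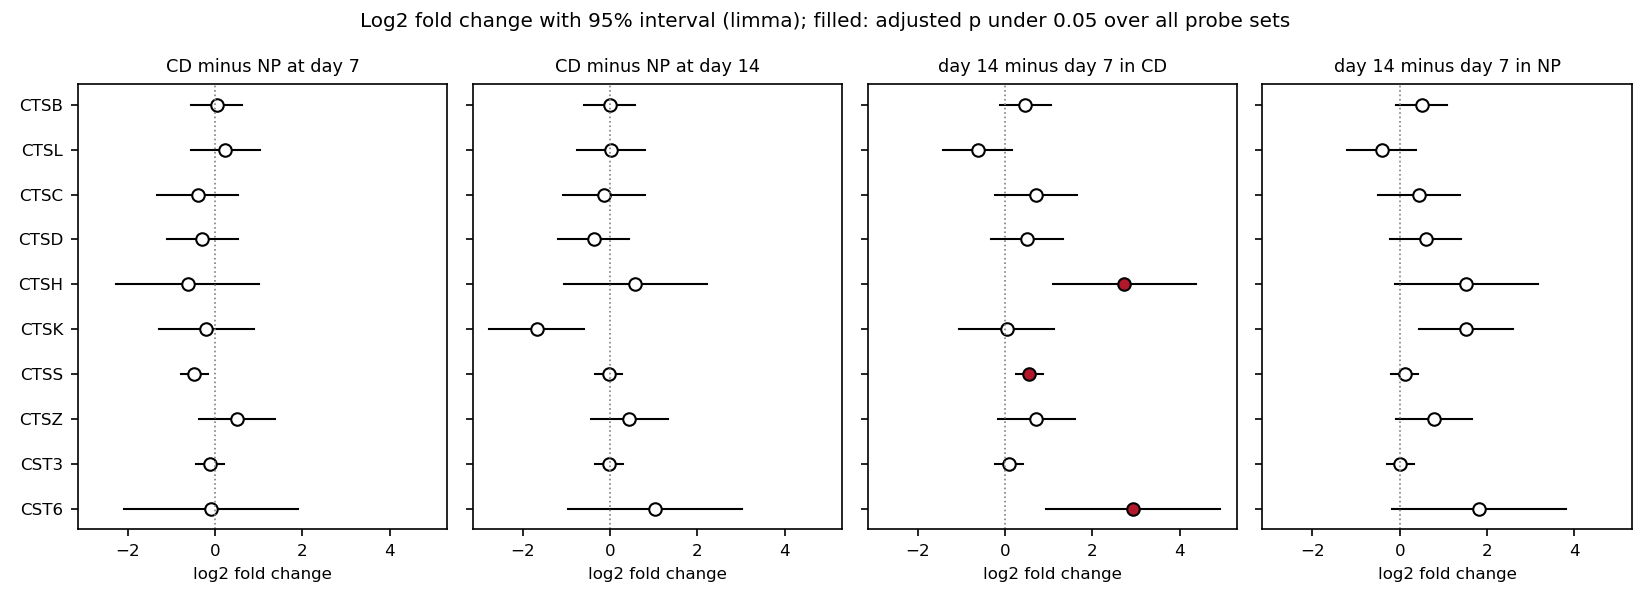
Log2 differences of the 10 genes between CD and NP at each day and between days in CD and in NP. Lines are 95% intervals from limma, and filled points have an adjusted p under 0.05. The difference of the day effects is not drawn. The filled points are CST6, CTSH and CTSS between days in CD, at 2.94, 2.73 and 0.56.

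At day 7, when outcome groups were compared before transfer, 0 of 10 genes passed (limma), where 3.48% of all genes did. CTSS came nearest. It was lower in every CDd7 pool than in any NPd7 pool, by 0.47 on the log2 scale (difference -0.47 ± 0.14, interval -0.79 to -0.16, unadjusted p = 0.00674, adjusted p = 0.0709, limma). Groups that lay apart in this direction were found for 1 of 10 genes, against 18.6% of all genes, and an unadjusted p under 0.05 for 1 of 10, against 30.4%. Without CDd7 pool 3 the CTSS difference was -0.61 and passed, with an adjusted p of 0.0364 (limma). T and natural killer cell markers differed between the same groups: CD8A, CD8B and LCK of 8 measured were called lower in CDd7. The list's mean level was 6.24 to 7.59 in CDd7 and 7.51 to 8.70 in NPd7. CD8B stood at 3.09 to 3.59 in CDd7, below the filter value of 4, and at 4.45 to 5.30 in NPd7. Outside NPd7 only NPd14 pool 3 was above 4. The NPd7 arrays thus carried CD8B past the filter, and the size of its difference depends on the floor. Neutrophil markers stood at 6.67 to 8.21 in CDd7 and 8.30 to 10.05 in NPd7. Of these 4 markers 0 were called (limma), and 2 were lower in CDd7 at an unadjusted p under 0.05. Myeloid markers overlapped, at 5.68 to 6.53 in CDd7 and 6.15 to 6.68 in NPd7. Their median difference was -0.11, with 6 of 9 negative and 3 positive. Of the 9 myeloid markers 0 were called (limma), and 1 was lower at an unadjusted p under 0.05. The part of these cells in the CTSS value was not tested. CTSZ differed by 0.50 (interval -0.38 to 1.38), CTSH by -0.63 (interval -2.27 to 1.01) and CST6 by -0.09 (interval -2.09 to 1.90).

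At day 14, 0 of 10 genes passed between CD and NP (limma), as did 0.0147% of all genes. CTSK was lower in every CDd14 pool than in any NPd14 pool, with a difference of -1.68 ± 0.49 (interval -2.76 to -0.60, unadjusted p = 0.00602, adjusted p = 0.431, limma). It was 1 of 10 genes with CD wholly below NP, against 5.72% of all genes, and 1 of 10 at an unadjusted p under 0.05, against 6.34%. Both CTSK intervals that left out 0 share the NPd14 arrays. The myeloid markers' mean level was 5.85 to 6.66 in CDd14 and 6.43 to 6.97 in NPd14, and the stromal fibroblast markers' was 6.16 to 6.91 in CDd14 and 6.56 to 8.26 in NPd14. Neutrophil markers stood at 8.60 to 9.57 in CDd14 and 9.53 to 11.34 in NPd14. None of the 9 myeloid, 11 stromal fibroblast and 4 neutrophil markers was called (limma). At an unadjusted p under 0.05, 2 neutrophil markers were lower in CDd14, and none of the myeloid or stromal fibroblast markers was. The part of these cells in the CTSK value was not tested. CST6 differed by 1.02 ± 0.90 (interval -0.97 to 3.02).

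Probe sets of the same gene disagreed for both genes that have several kept ones. For CST3, the second brightest probe set read 11.65, 11.31 and 11.57 in the CDd14 pools, 11.39, 11.84 and 10.90 in the NPd14 pools, 10.41, 10.35 and 10.59 in the CDd7 pools, and 11.34, 11.62 and 11.54 in the NPd7 pools. Every CDd7 pool was below every other array. This probe set was lower in CDd7 than in NPd7 by 1.05 (difference -1.05 ± 0.21, adjusted p = 0.0368, limma) and rose in CDd14 relative to CDd7 by 1.06 ± 0.21 (adjusted p = 0.00839, limma). Among all kept probe sets 3.74% were called at day 7 and 24% between days in CD. The difference of its day effects was 1.18 ± 0.30 (unadjusted p = 0.00270, adjusted p = 0.244, limma). The brightest probe set differed by 0.10 between days in CD, and the third by -0.47 ± 0.18 with an adjusted p of 0.0765 (limma). At day 7, then, 1 of the 3 CST3 probe sets passed the test. The day 7 call was lost without NPd7 pool 1 or 3, CDd7 pool 1 or 2, NPd14 pool 1 or CDd14 pool 1 or 3 (adjusted p = 0.0527 to 0.149, limma) and with the 3' minus 5' covariate (0.283). The CST3 call between days in CD was lost with the covariate alone (adjusted p = 0.0785, limma).

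CTSB has 5 kept probe sets, counted here by brightness. The third read 9.72, 8.77 and 8.43 in the CDd14 pools and 7.59, 6.77 and 7.24 in the CDd7 pools, and rose by 1.77 ± 0.32 (adjusted p = 0.00611, limma). In NP the same probe set averaged 9.05 ± 0.10 in NPd14 and 8.06 ± 0.31 in NPd7 (adjusted p = 0.187, limma). The second rose in CD by 0.82 ± 0.25 (adjusted p = 0.0393, limma). The brightest differed by 0.47 and did not pass, while the fourth and the fifth stood at -0.27 and -0.48 in CD (adjusted p = 0.572 and 0.311, limma). The call of the third held with any single array left out, and that of the second was lost without 9 of the 12 arrays in turn (adjusted p = 0.0504 to 0.141, limma). So 3 CTSB probe sets had positive values, 2 of them past the threshold, and 2 had negative values. Of the negative ones, the fifth averaged 3.86 over the 12 arrays, below the filter value of 4, so its value depends on the floor. Which transcript ends the probe sets read was not analysed here.

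**Figure D3:**
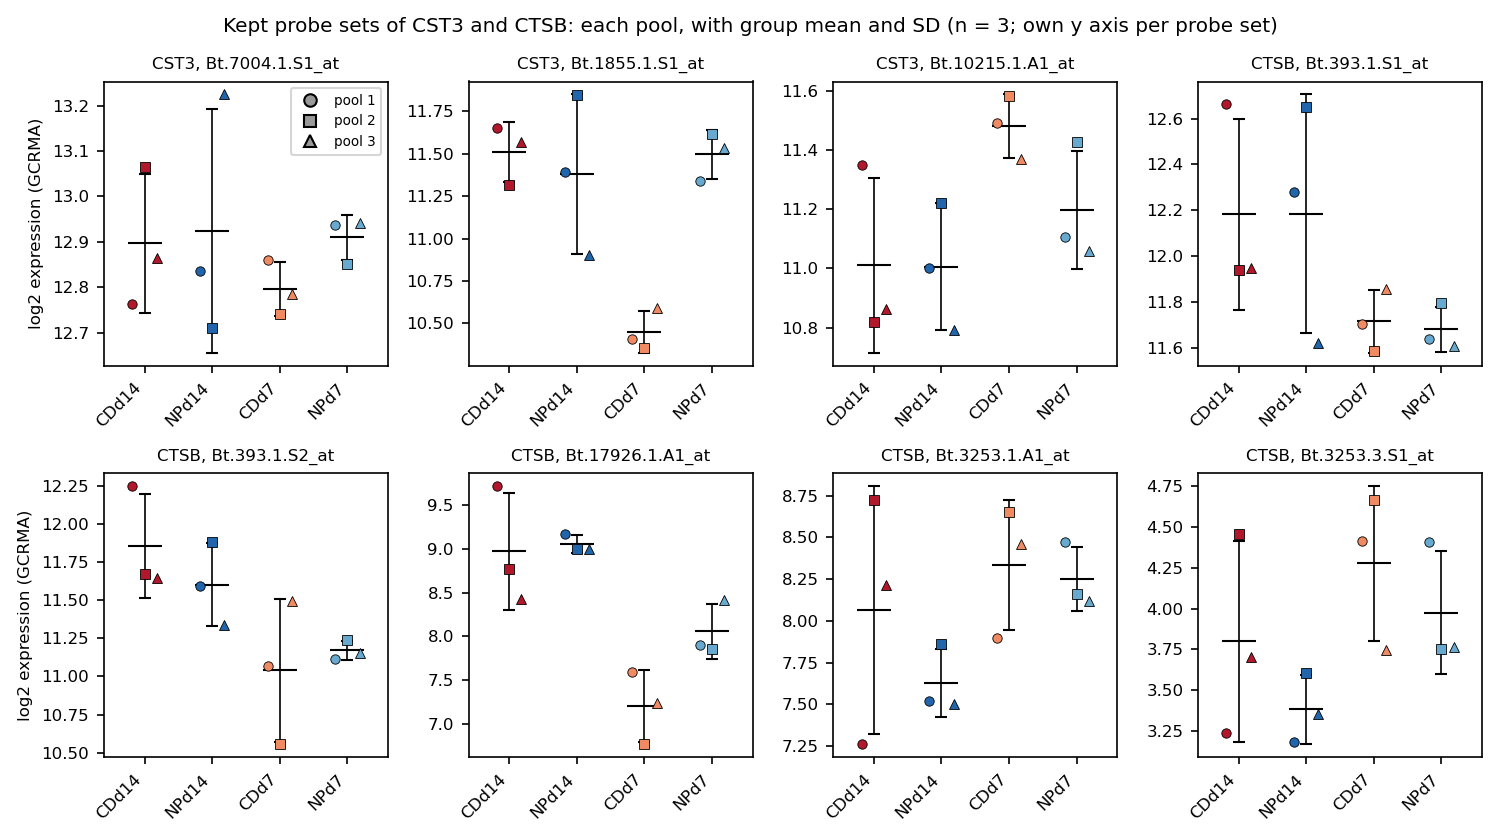
Log2 level of each kept probe set of CST3 (3 probe sets) and CTSB (5 probe sets) by group, with a symbol per pool, bars for the group mean and SD (n = 3), and panels of each gene running from its brightest to its dimmest probe set. The second CST3 probe set averaged 10.45 in CDd7 and 11.50 in NPd7, while the brightest averaged 12.80 in CDd7 and 12.91 in NPd7.

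The genes did not vary as a single block. CTSB, CTSD, CTSH, CTSZ and CST6 were each highest of the CDd14 pools in pool 1 and lowest of the NPd14 pools in pool 3, and CDd14 pool 1 was the highest of all 12 arrays for CTSB, CTSH, CTSZ and CST6. The same CDd14 pool was the lowest of all arrays for CTSK and CTSL. CTSS and CTSC followed another order, with CDd14 pool 1 the lowest of its group for both and CDd14 pool 2 the highest. Day 14 pools of 1 group therefore differed from each other in these genes by as much as several log2 units, as between 8.33 and 12.22 for CST6 in NPd14.

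**Figure D4:**
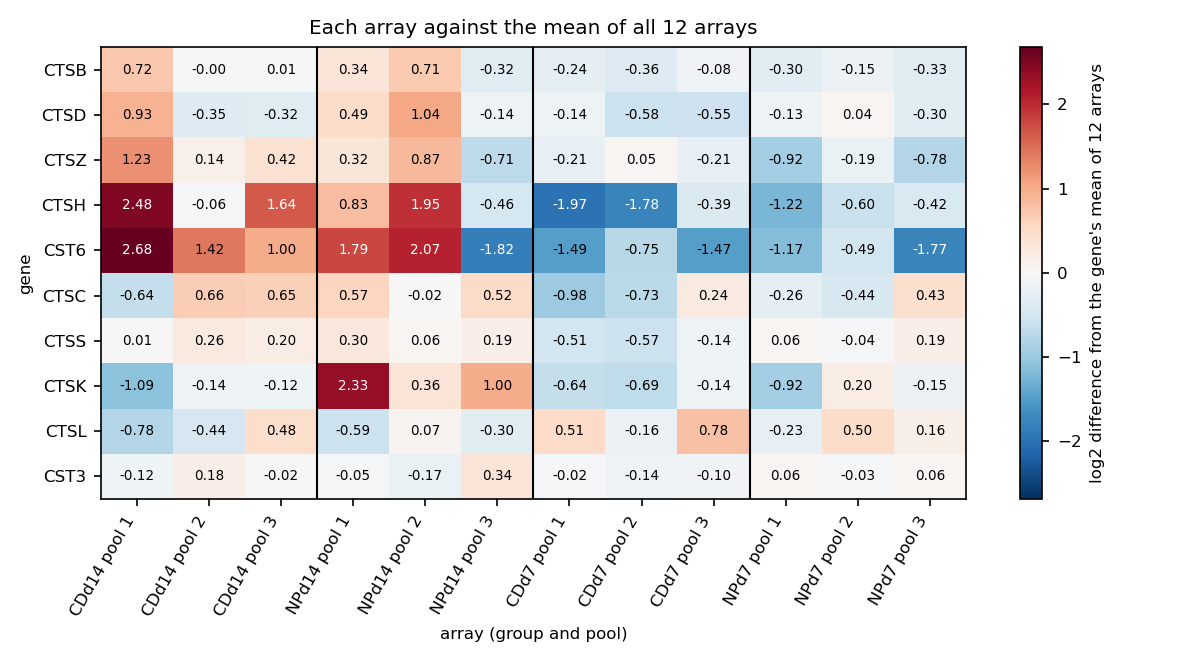
Difference of each array from the gene's mean over all 12 arrays, for the 10 genes (log2 units, colour scale and printed values), with the arrays ordered CDd14, NPd14, CDd7, NPd7. It therefore holds differences between groups as well as between pools. CTSB, CTSD, CTSH, CTSZ and CST6 are above that mean in CDd14 pool 1 and below it in NPd14 pool 3.

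CST6 and CTSH had the largest spans of group means, and the genes with the most similar profiles over the 12 arrays were looked up for both by Pearson correlation, as a description over arrays that share 4 groups. For CST6 they were NMB (r = 0.980), CRY1 (r = 0.974) and MAP2 (r = 0.971). NMB encodes the peptide neuromedin B, CRY1 a repressor of the circadian clock and MAP2 a microtubule-associated protein. NMB averaged 11.65 in CDd14, 10.99 in NPd14, 9.03 in CDd7 and 8.66 in NPd7 on the log2 scale, so its day 14 groups also lay highest. For CTSH they included UTP25 (r = 0.965) and COTL1 (r = 0.947), of which COTL1 encodes an actin-binding protein.

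Among genes that process and deliver cathepsins to the lysosome, 8 of 9 listed were measured. Between days in CD, 1 rose and 1 fell, or 2 of 8 where 24.1% of all genes were called, and in the other 4 comparisons none was called (limma; at an unadjusted p under 0.05, 2 were higher in CDd7 than in NPd7, and none in the other 3). LGMN encodes legumain, the protease that CST6 inhibits and that can cut procathepsins. Its log2 level was 13.76, 12.94 and 13.32 in the CDd14 pools, 13.42, 13.91 and 11.87 in the NPd14 pools, 11.79, 12.15 and 11.81 in the CDd7 pools, and 12.32, 11.91 and 12.19 in the NPd7 pools. As with CST6, the CDd14 pools lay above all day 7 pools and NPd14 pool 3 stood apart from its group. LGMN rose in CD by 1.42 ± 0.44, or 2.68-fold (adjusted p = 0.0403, limma), and differed in NP by 0.92 (adjusted p = 0.329, limma). The LGMN call was lost when any of 10 of the 12 arrays was left out (adjusted p up to 0.112, limma). GNPTG, a subunit of the enzyme that builds the mannose 6-phosphate tag, fell in CD by 1.52 on the log2 scale, or 2.87-fold (SE 0.44, adjusted p = 0.0322, limma). The GNPTG call was lost without CDd7 pool 1 or 2 or CDd14 pool 2 or 3 (adjusted p = 0.0797 to 0.105, limma). The median of these 8 genes between days in CD was 0.19.

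Other cathepsins were measured for 4 of 7 listed genes, and 1 of them was called, between days in CD, where 24.1% of all genes were. CTSF, a cysteine cathepsin, had a lowest CDd7 pool of 8.32, above all CDd14 pools. It fell by 0.92 (SE 0.27), or 1.89-fold, in CD (adjusted p = 0.0335, limma), and its NP difference was -0.84 (adjusted p = 0.184, limma). The CD call was lost without CDd7 pool 1 or 2 or any CDd14 pool (adjusted p = 0.0673 to 0.0994, limma). CTSV, a close relative of CTSL, averaged 13.27 in CDd14, 12.64 in NPd14, 13.00 in CDd7 and 12.01 in NPd7. Its difference between CDd7 and NPd7 was 0.99 ± 0.56 (adjusted p = 0.252, limma). RefSeq gives CTSL as an older name of bovine CTSV, so the name CTSL can stand for either gene in other sources. Of 9 other cystatins only AHSG and KNG1 were measured, and neither was called in any of the 5 comparisons (limma; KNG1 had an unadjusted p under 0.05 in 3 of them).

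Lysosomal hydrolases, which break down glycans, lipids and proteins, were measured for 14 of 25 listed genes. Between days in CD, 1 rose and 2 fell, or 3 of 14 where 24.1% of all genes were called, and none was called in the other 4 comparisons (limma; 3 at day 7, 1 at day 14, 1 between days in NP and 2 in the difference of day effects had an unadjusted p under 0.05). PPT1, a palmitoyl-protein thioesterase, rose by 1.13 ± 0.21, or 2.19-fold (adjusted p = 0.00686, limma). GUSB, the beta-glucuronidase, read 7.77, 6.55 and 7.06 in the CDd14 pools and 10.47, 10.82 and 9.22 in the CDd7 pools. These groups lay far apart, and GUSB fell 8.25-fold, a log2 difference of -3.04 ± 0.63 (adjusted p = 0.00933, limma). FUCA1, a fucosidase, fell by 0.86 on the log2 scale, or 1.82-fold (adjusted p = 0.0117, limma). The median over the 14 genes was 0.01.

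The lysosomal membrane and its proton pump were measured for 20 of 22 listed genes. In CD between days 3 of the 20 were called, against 24.1% of all genes. CTNS, the cystine exporter, rose by 0.76 ± 0.24 (adjusted p = 0.0419, limma), and the pump genes ATP6AP1 and ATP6V1B2 fell. ATP6V1B2 read 8.68, 8.78 and 8.67 in the CDd14 pools, 8.55, 8.39 and 8.67 in the NPd14 pools, 9.16, 9.43 and 9.40 in the CDd7 pools, and 8.68, 8.73 and 8.59 in the NPd7 pools. The CDd7 pools were the highest of the 12. ATP6V1B2 was higher in CDd7 than in NPd7 by 0.66 ± 0.12 (adjusted p = 0.0285, limma), and ATP6AP1 by 0.99 ± 0.23 (adjusted p = 0.0458, limma). They were 2 of 20 genes called in that comparison, where 3.48% of all genes were called. In CDd14 relative to CDd7, ATP6V1B2 fell by 0.62 and ATP6AP1 by 0.93 (adjusted p = 0.00677 and 0.0180, limma). Both comparisons share the CDd7 pools. At day 7 the ATP6V1B2 call was lost without NPd7 pool 1 or 3, CDd7 pool 2 or CDd14 pool 3 (adjusted p = 0.0557 to 0.140, limma), the ATP6AP1 call without 9 of the 12 arrays in turn (0.0511 to 0.188), and the CTNS call between days without 9 of the 12 (0.0543 to 0.128). ATP6AP1 lost its call between days in CD without CDd7 pool 2 or CDd14 pool 2 or 3 (adjusted p = 0.0574 to 0.0759, limma). The median over the 20 genes was -0.24 between days in CD, whereas the 10 cathepsin and cystatin genes had 0.54.

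**Figure D5:**
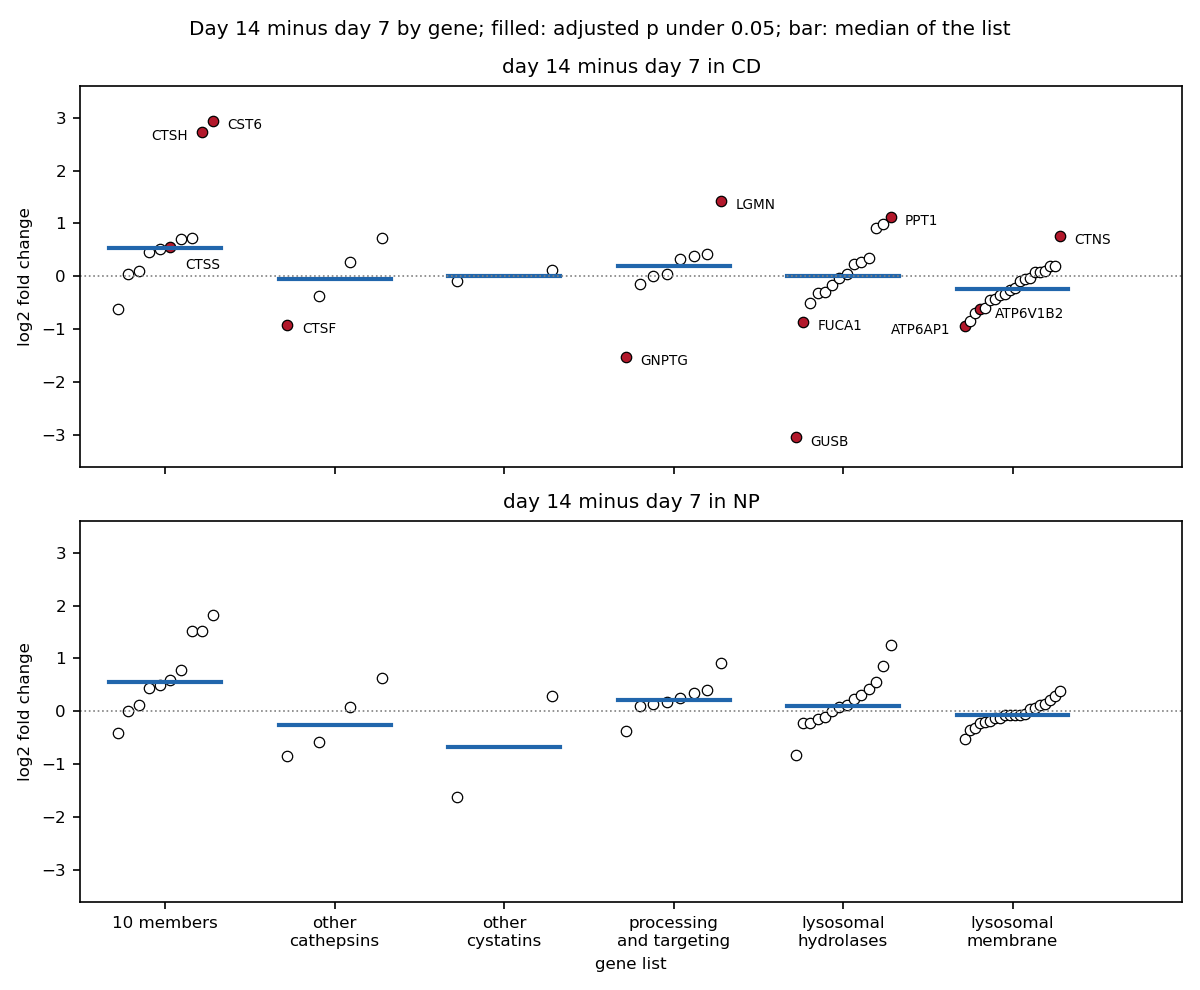
Day 14 minus day 7 differences (log2) in CD above and in NP below, with 1 point per measured gene for the 10 cathepsin and cystatin genes and for 5 lists of lysosomal genes. Filled points have an adjusted p under 0.05 and bars are list medians; CST6 (2.94) and GUSB (-3.04) are the extremes in CD, and no point is filled in NP.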

How the data were processed

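The authors deposited log2 values for 24128 probe sets, made with GCRMA per the submitters' processing notes, which also name limma; no version is stated there. Because GCRMA compresses low signals near a floor, differences of dim genes depend on it. After 112 control probe sets were left out, 13449 of 24016 (56%) passed the filter.

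Differences were fitted with limma 3.58.1 in R 4.3.3 (4 group means over 12 arrays, 8 residual and 2.13 prior degrees of freedom, empirical Bayes), with Benjamini-Hochberg adjustment over the 13449 probe sets and a two-sided threshold of 0.05. The script was tested on simulated data. No scan date or batch is given in the labels, and the number of arrays limits the precision. One CDd14 title carries 2 unlike numbers, and its stated replicate was used.

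The members, the lists of other genes and the markers were chosen with earlier results of these data known. The genes named are the 10 members, called genes of each list (up to 5, by smallest p) and, for the 2 members with the largest span, the 3 genes of most similar profile, 1 of which is not reported here; marker genes are named where they bear on a value. Probe sets of 1 gene are ordered by mean level over the 12 arrays. Gene symbols come from the platform annotation, and all 18 probe sets' symbols matched RefSeq.

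Pool numbers were checked for pairing through correlations of deviations from group means. Same-numbered NPd14 and NPd7 pools correlated at 0.161, 0.619 and 0.507, while those of the other group pairs did not all pass 0.1. Pools 2 and 3 of CDd7 and NPd7, groups of different outcome, also correlated by number, at 0.363 and 0.270. The check therefore cannot tell shared heifers from another likeness of same-numbered pools, and the pairing in NP is not established. Filters, normalization, moderation, probe set choice, the 3' minus 5' covariate, the block and left-out arrays were tried as alternatives.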

Additional observations from a re-analysis of the deposited data

How the results depend on the processing

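Of the 10 genes, 3 were called between days in CD, against 1 with no filter (CTSS), 0 with the 3' minus 5' covariate, 2 in a fit on the CD arrays alone and 4 with the mean of each gene's probe sets, where CTSB joined (adjusted p = 0.0312, limma). Leaving out 1 array in turn gave 0 to 3 called genes between days in CD, 0 to 1 between CD and NP at day 7 and 0 to 1 between days in NP. The cause of the shifts was not tested. CTSS and CTSH were each called in 14 of 20 alternatives and CST6 in 10 of 20. With the pool number as a replicate block the member counts were 3 between days in CD and 0 in the other comparisons, so it changed no call of a gene's brightest member probe set, but the second CTSB probe set, CTSF and CTNS lost theirs between days in CD (adjusted p = 0.0535, 0.0506 and 0.0556, limma); in a fit of the NP arrays alone with the block, added after the data were seen, the count was 0. The second-brightest CST3 probe set was called in 18 of 19 alternatives between days in CD and in 9 of 19 at day 7 (adjusted p = 0.0208 to 0.283, limma). In CD between days the third-brightest CTSB probe set was called in 18 of 19 (adjusted p up to 0.0885, limma) and the second in 6 of 19 (up to 0.289). In CD between days GUSB, PPT1, FUCA1 and ATP6V1B2 were each called in 18 of 19, LGMN in 7, CTSF in 10, GNPTG in 13, ATP6AP1 in 15 and CTNS in 6; at day 7 ATP6V1B2 was called in 13 and ATP6AP1 in 7. With the 3' minus 5' covariate none of the called member or list values was past the threshold (limma). No called value changed sign in the alternatives run. Signal near the floor limits CTSL, CTSK and the dimmer CTSH pools.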

Other observations

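CTSK and CTSS are neighbours in the bovine genome, with 1 protein-coding gene between them in the RefSeq annotation of the ARS-UCD2.0 assembly, and their levels had different orders of groups: CTSK was highest in NPd14 and CTSS lowest in CDd7. KNG1, a kininogen with cystatin domains, read 4.79, 4.99 and 4.18 on the log2 scale in the NPd14 pools and 6.20, 6.55 and 6.09 in the NPd7 pools, which do not overlap, but its difference did not pass (adjusted p = 0.163, limma).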
